A study of Mus musculus with 8 samples.

Results

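The 2599 bins of 10 kb described here carried high signal of histone H3.1 in both lines that express a tagged H3.1. They were chosen as the bins on chromosomes 1 to 19 and X with at least 7.3 RPM in H3.1K36M and in H3.1WT, and they are 1.05% of the 247593 bins of that width. RPM is the number of reads in a bin scaled to a common library size, on which 1 read was worth 0.0215 to 0.0283 RPM. The threshold stands about 2-fold above the medians of 3.64 RPM (H3.1K36M) and 3.65 RPM (H3.1WT) over the 245206 bins with a mean of at least 0.5 RPM, which are called all bins below. All 2599 bins passed that filter. The H3.1 values chose the bins and are given as a description, whereas the H3.3 libraries had no part in the choice.

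The signal is that of chromatin immunoprecipitation followed by sequencing (ChIP-seq) with an antibody to the HA epitope, in C3H10T1/2 cells at passage 10 to 15. This mouse line derives from C3H embryos and resembles mesenchymal progenitors. The 4 lines stably expressed FLAG-HA-tagged H3.3K36M, wild-type H3.3 (H3.3WT), H3.1K36M or wild-type H3.1 (H3.1WT), each with 1 HA library. The tagged protein was added to cells that carry their own histone genes, and whether a line is 1 clone is not stated in the labels. Reads recovered from the RPM values and summed over all rows were 38783917 (H3.3K36M), 46749609 (H3.3WT), 41705735 (H3.1K36M) and 35487141 (H3.1WT). Each is a sum of bin counts and not an exact library size. Because every line has 1 library, differences between the lines were not tested and are described by their size. Intervals cover counting error only. Input libraries were not used here, so in every result below DNA copy number, the number of genomic repeats that map to a bin and the amount of tagged histone cannot be told apart.

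H3.1 is the replication-coupled form of histone H3, which the chaperone CAF-1 places behind the replication fork. H3.3 is also placed outside replication, by HIRA at active genes and by ATRX and DAXX at repeated DNA such as pericentromeric and telomeric repeats. Lysine 36 is methylated in transcribed chromatin, and the methionine that replaces it in K36M inhibits enzymes which methylate this residue.

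Bins with high H3.1 were also high in H3.3. Median signal over the 2599 bins stood at 7.80 (H3.3K36M), 8.41 (H3.3WT), 8.48 (H3.1K36M) and 8.66 RPM (H3.1WT). These values are 2.59, 3.03, 2.33 and 2.37 times the medians of the same libraries over all bins. The H3.1 factors are set largely by the threshold. The middle 50% of the bins lay between 6.24 and 10.3 RPM in H3.3K36M, between 6.47 and 10.9 RPM in H3.3WT, between 7.86 and 9.57 RPM in H3.1K36M and between 7.92 and 9.88 RPM in H3.1WT. The median bin held 301, 391, 352 and 306 reads in these libraries, and no bin held fewer than 107.

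By H3.3 level the bins fell almost wholly into 2 classes. In 1968 of the 2599 bins (75.7%) both H3.3 libraries were at least 2-fold above their medians, that is at or above 6.01 RPM (H3.3K36M) and 5.55 RPM (H3.3WT); they are called H3.3-rich. Of all bins, 14% were H3.3-rich. Another 630 bins lay between, with at least 1 H3.3 library at or above its median. A single bin, chr11:81760001-81770000, was below the median in both H3.3 libraries, against 40.6% of all bins. It held 2.77 (H3.3K36M), 2.58 (H3.3WT), 8.48 (H3.1K36M) and 8.32 RPM (H3.1WT). The H3.3-rich share exceeded that of all bins of the same chromosome on all 20 chromosomes, with a range from 55.1% of the high-H3.1 bins of chromosome 14 to 91.7% of those of chromosome 6.

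**Figure D1:**
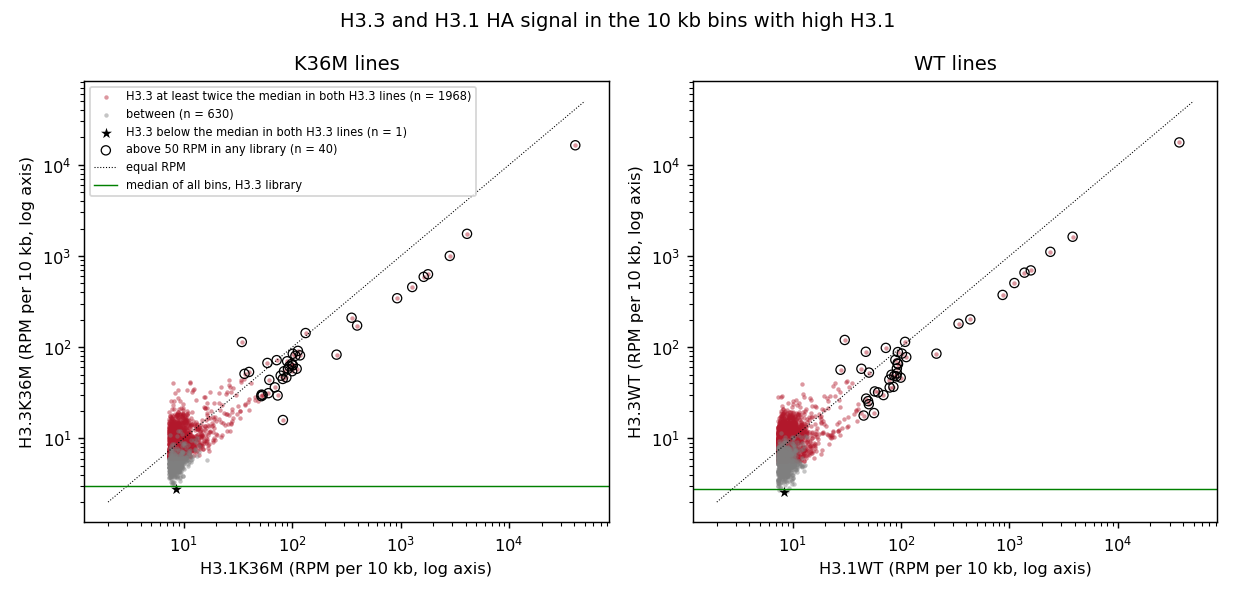
Each point is 1 of the 2599 bins, with the HA signal of H3.3 (vertical) against that of H3.1 (horizontal) in RPM per 10 kb on log axes, for the K36M lines at left and the WT lines at right; colours give the H3.3 class and rings the 40 bins above 50 RPM. Nearly all points lie above the green line, the H3.3 median of all bins, and the ringed bins run below the dotted line of equal RPM with few exceptions.

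Read against the level of H3.1, H3.3 rose less than in proportion. Bins were divided by the lower of their 2 H3.1 values, with limits chosen after the values were seen. In the 1178 bins from 7.3 to 8 RPM H3.3 over H3.1 had a median log2 value of -0.16 in the K36M lines and -0.05 in the WT lines. In the 52 bins from 20 to 50 RPM it was -0.58 and -0.92, and in the 33 bins from 50 RPM up it was -0.86 and -0.92. H3.1 enters both the limits and the ratio, so this trend is a description of the bins chosen. The H3.3 level itself, which shares no library with the limits, was 7.14 RPM (H3.3K36M) and 7.76 RPM (H3.3WT) at the median of the lowest of these classes. In the class from 20 to 50 RPM the same medians were 23.5 RPM and 18.0 RPM. The rise was not steady in H3.3WT, with 10.2 RPM in the class from 10 to 12 RPM and 8.33 RPM in that from 12 to 15 RPM. Of the 197 bins with at least 12 RPM in both H3.1 lines, 112 lay in 10 clusters of 5 bins or more, so the upper classes rest on few places. A 2-fold difference between the variants was uncommon in the bins. H3.3K36M was at least 2-fold above H3.1K36M in 50 of them (1.92%), against 8.18% of all bins, and at least 2-fold below it in 64 (2.46%), against 3.29%. H3.3WT was at least 2-fold above H3.1WT in 47 (1.81%), against 10.3%, and at least 2-fold below it in 186 (7.16%), against 16.8%. The rule used the H3.1 libraries, so nothing is read from these shares. All 123 bins with at least 15 RPM in both H3.1 lines were H3.3-rich, against 806 of the 1178 bins (68.4%) from 7.3 to 8 RPM.

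Within the 2559 bins at or under 50 RPM, the rank order of H3.3 was compared with that of H3.1. Spearman's rho over these bins was 0.284 between H3.3K36M and H3.1K36M and 0.244 between H3.3WT and H3.1WT, against 0.815 between H3.3K36M and H3.3WT and 0.583 between H3.1K36M and H3.1WT. Bins of 1 library share its depth and neighbouring bins share their surroundings, and the limit of 7.3 RPM and the one of 50 RPM cut off both ends of H3.1, so nothing is read from the low values. Over all bins rho was 0.463 between H3.3K36M and H3.1K36M and 0.446 between H3.3WT and H3.1WT.

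The highest signal stood in 40 bins with more than 50 RPM in at least 1 library, at 15 sites when bins within 500 kb of each other are joined. All 40 were H3.3-rich, and no bin above 50 RPM lay outside the 2599. They took up 2.33% of the summed reads in H3.3K36M, 2.46% in H3.3WT, 5.65% in H3.1K36M and 5.10% in H3.1WT. A single bin, chr2:98500001-98510000, accounted for most of this, with 16383 (H3.3K36M), 17606 (H3.3WT), 40780 (H3.1K36M) and 36915 RPM (H3.1WT). That is 1.63%, 1.75%, 4.06% and 3.68% of the summed reads of these libraries in 1 bin.

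The bins next in rank were found in 5 places. At chr6:103590001-103600000 the signal was 1750.3 (H3.3K36M), 1625 (H3.3WT), 4091 (H3.1K36M) and 3828 RPM (H3.1WT). At chr9:35110001-35120000 it was 1001 RPM, 1111 RPM, 2836 RPM and 2387 RPM in the same order of libraries. The first 4 assembled bins of chromosome 9, chr9:3000001-3040000, averaged 505 (H3.3K36M), 558 (H3.3WT), 1405 (H3.1K36M) and 1232 RPM (H3.1WT). All these bins were more than 100 times above the library medians in every library. The bin chrX:139910001-139920000 held 210.2 (H3.3K36M), 202 (H3.3WT), 352 (H3.1K36M) and 436 RPM (H3.1WT). The 2 bins at chr12:3100001-3120000 averaged 128 RPM, 133 RPM, 326 RPM and 276 RPM in the same order of libraries. Mouse chromosomes have their centromere at 1 end, next to blocks of satellite repeats, and the assembled sequence of most of them begins past these blocks. Of the 40 bins, 12 lay within 100 kb of the first bin used on their chromosome (30%), against 0.0779% of all bins. These 12 were 7 touching bins on chromosome 11, 4 touching bins on chromosome 9 and 1 bin on chromosome 18. Touching bins are not independent, so the share of bins is not a share of sites.

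H3.3 and H3.1 stood in a similar ratio at most of these sites. In the 10 bins with at least 150 RPM in H3.1WT, on chromosomes 2, 6, 9, 12 and X, the ratio of H3.3K36M over H3.1K36M lay between 0.323 and 0.596 and that of H3.3WT over H3.1WT between 0.400 and 0.533. The ratios of the library medians were 0.826 and 0.760. In the 10 bins the signal exceeded the library median by a smaller factor in H3.3 than in H3.1. H3.1 chose these bins and is also the divisor, which favours a low ratio, so nothing is read from this difference. A cluster of 13 bins at chr8:19710001-20040000 gave ratios from 0.520 to 0.781 in the K36M lines and from 0.431 to 0.609 in the WT lines. The 7 bins at chr11:3030001-3100000, near the start of chromosome 11, lay higher, from 0.546 to 0.808 and from 0.638 to 0.945.

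At 3 sites with coordinates given here, mean H3.3 was above mean H3.1 in both states. At chr15:74910001-74920000 the signal was 143 (H3.3K36M), 114 (H3.3WT), 133 (H3.1K36M) and 109 RPM (H3.1WT), or 1.08 and 1.05 as H3.3 over H3.1 in the K36M and WT lines. This was the only 1 of the 40 bins that overlapped an H3.3K36M peak of the authors' deposited list. At chr17:39980001-39990000 it was 53.5 RPM, 57.9 RPM, 39.9 RPM and 43.1 RPM in the same order, which put H3.3 over H3.1 at 1.34 (95% interval 1.25 to 1.43) in the K36M lines and 1.34 in the WT lines. Near the end of chromosome X, 4 bins at chrX:166410001-166450000 averaged 80.4 (H3.3K36M), 90.9 (H3.3WT), 60.8 (H3.1K36M) and 44.5 RPM (H3.1WT). There H3.3 over H3.1 was 1.32 (1.29 to 1.36) in the K36M lines and 2.04 (1.99 to 2.11) in the WT lines over the 4 bins together. Its bins differed: the ratio in the K36M lines was 3.33 at chrX:166410001-166420000, 1.41 and 1.00 in the next bins and 0.837 (0.800 to 0.877) at chrX:166440001-166450000, and in the WT lines it ran from 3.96 to 1.35. The first bin of chromosome 18 also had a ratio above 1 in both states, 1.14 and 1.04.

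**Figure D2:**
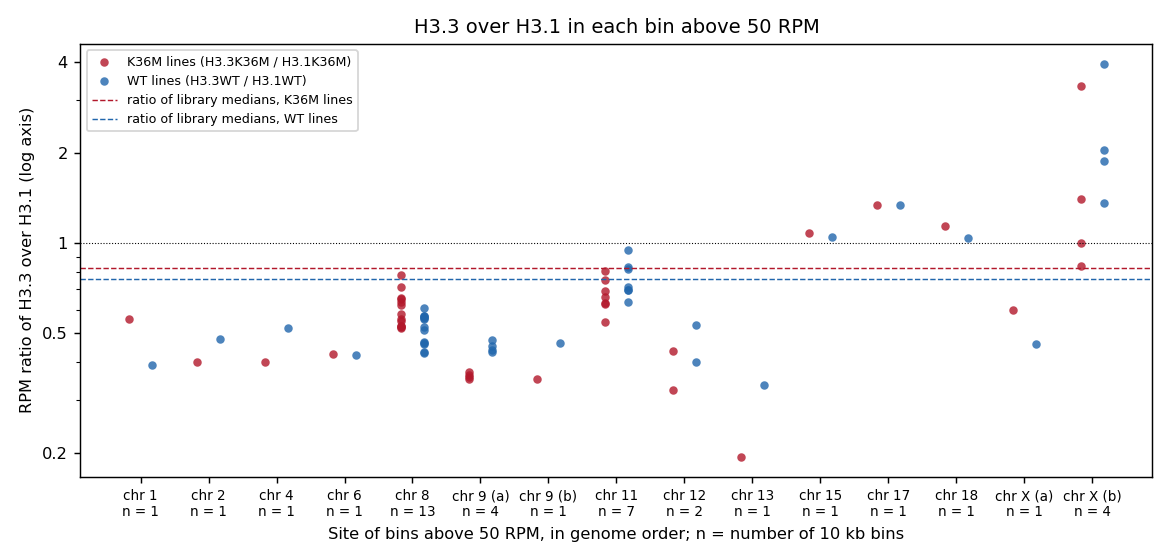
Points give H3.3 over H3.1 in RPM on a log axis for each of the 40 bins above 50 RPM, in the K36M lines (red, left) and the WT lines (blue, right), at 15 sites in genome order; dashed lines mark the ratios of the library medians, 0.826 and 0.760. Most sites lie below both dashed lines, and the bins near the end of chromosome X spread widely, from 0.837 to 3.33 in the K36M lines and from 1.35 to 3.96 in the WT lines.

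The lowest ratio of H3.3 over H3.1 among these sites was at chr13:77570001-77580000, with 15.9 (H3.3K36M), 18.9 (H3.3WT), 82.0 (H3.1K36M) and 56.4 RPM (H3.1WT). H3.1K36M was 1.45-fold above H3.1WT there (1.38 to 1.54), the highest such ratio of all runs of high-H3.1 bins, while H3.3K36M over H3.3WT was 0.839 (0.756 to 0.931). H3.1K36M was above H3.1WT in 37 of the 40 bins, against 49.8% of all bins, and the median log2 ratio in the 40 was 0.14. H3.3K36M was above H3.3WT in 20 of the 40, against 58.4% of all bins. The limit of 7.3 RPM used both H3.1 libraries and that of 50 RPM used any library, so nothing is read from these counts. The 40 bins lie at 15 sites, and bins of 1 site are not independent.

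The 2599 bins, with those above 50 RPM included, lay mostly in short runs. Touching bins formed 1449 runs. Of these, 909 (62.7%) were a single bin, with 35.0% of the bins, and 77 reached 50 kb or more. These 77 held 560 bins, or 21.5% of the 2599. The longest were 2 runs of 270 kb, at chr1:33830001-34100000 and chr13:12830001-13100000, and they differed in H3.3. The chromosome 1 run averaged 18.2 (H3.3K36M), 18.5 (H3.3WT), 12.4 (H3.1K36M) and 12.8 RPM (H3.1WT), so H3.3 was the higher variant, and 19 of its 27 bins overlapped H3.3K36M peaks. The chromosome 13 run averaged 8.56 RPM, 6.75 RPM, 11.4 RPM and 10.7 RPM in the same order, with H3.1 the higher variant and 1 bin with an H3.3K36M peak.

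The other runs among the 10 longest divided in the same 2 ways. H3.3 exceeded H3.1 at chr2:27620001-27740000, with 14.0 (H3.3K36M), 14.3 (H3.3WT), 9.54 (H3.1K36M) and 10.03 RPM (H3.1WT). The runs chr19:9100001-9220000 and chr14:21630001-21740000 were alike, with H3.3 over H3.1 at 1.47 and 1.33 in the K36M lines and 1.38 and 1.22 in the WT lines. Between 5 and 9 bins of each of these 3 runs overlapped H3.3K36M peaks. H3.1 exceeded H3.3 at chr5:14920001-15060000, with 13.8 (H3.3K36M), 10.6 (H3.3WT), 19.2 (H3.1K36M) and 19.2 RPM (H3.1WT). The same held at chr8:19680001-19790000 and chr8:19850001-20040000, which include the chromosome 8 bins above 50 RPM, and at chr1:90110001-90210000. None of the bins of the chromosome 5 and chromosome 8 runs overlapped an H3.3K36M peak, and 3 bins of the run at chr1:90110001-90210000 did. The remaining run, 130 kb on chromosome 18, had 9.15 (H3.3K36M), 8.74 (H3.3WT), 8.95 (H3.1K36M) and 9.29 RPM (H3.1WT), close to equal in all libraries.

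At the low end of H3.3, the 5 runs with the lowest H3.3 mean were single bins in which H3.1 was more than 2-fold above H3.3WT. The lowest was chr11:81680001-81690000, with 3.21 (H3.3K36M), 2.71 (H3.3WT), 8.001 (H3.1K36M) and 7.53 RPM (H3.1WT). The others, on chromosomes 1, 4, 9 and 14, had between 3.32 and 4.04 RPM in H3.3K36M and between 2.88 and 3.68 RPM in H3.3WT. The chromosome 11 bin lay 50 kb before the run chr11:81740001-81820000, which holds the 1 bin poor in H3.3. The 8 bins of that run averaged 4.24 (H3.3K36M), 4.48 (H3.3WT), 8.64 (H3.1K36M) and 9.01 RPM (H3.1WT), and 1 of them was H3.3-rich.

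The bins were dense on few chromosomes. Over the genome there were 1.06 per Mb of bins used. Chromosome 11 had 2.98 per Mb, chromosome 15 had 2.49, chromosome 17 had 2.37, chromosome 19 had 2.21 and chromosome 8 had 1.81. These 5 chromosomes held 44.0% of the high-H3.1 bins and 19.6% of all bins. The fewest were on chromosomes 3 (0.205 per Mb), X (0.235) and 6 (0.256). The H3.1 medians of whole chromosomes moved in part with this order and differed far less. They were 2.96 RPM (H3.1K36M) and 3.03 RPM (H3.1WT) on chromosome 3 and 4.10 RPM (H3.1K36M) and 4.13 RPM (H3.1WT) on chromosome 19, but 3.64 and 3.57 RPM on chromosome 11. The part of these differences in the density was not tested. Ends of chromosomes were over-represented: 11.4% of the high-H3.1 bins lay within 5 Mb of the distal end, against 3.93% of all bins and 5.28% of the H3.3-rich bins without high H3.1. Within 5 Mb of the first bin used lay 5.66% of them, against 3.79% of all bins.

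**Figure D3:**
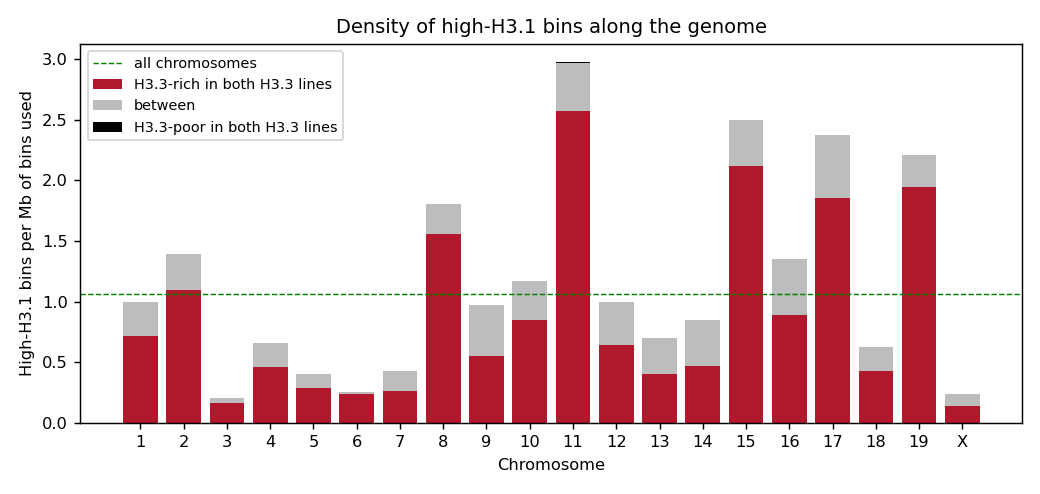
Bars give the number of high-H3.1 bins per Mb of bins used on each chromosome, divided by H3.3 class; the dashed line is the value over all chromosomes, 1.06 per Mb. Chromosomes 11, 15, 17 and 19 stand above 2 per Mb.

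H3.3 was high over wide surroundings of the bins. Bins 10 kb away that were not themselves high in H3.1 gave a median of 7.80 RPM with H3.3K36M and of 8.34 RPM with H3.3WT, about the same as the high-H3.1 bins. In the H3.1 libraries they had 6.36 RPM (H3.1K36M) and 6.25 RPM (H3.1WT). Flanking bins that missed the threshold are lower in H3.1 by the rule, so nothing is read from the step in H3.1 at 10 kb. The H3.3 libraries had no part in the rule. Even so, high-H3.1 bins were H3.3-rich more often than all bins, and leaving them out of the flanks can shift the H3.3 medians there. At 50 kb the medians were 8.16 RPM, 8.82 RPM, 5.54 RPM and 5.52 RPM in the order H3.3K36M, H3.3WT, H3.1K36M and H3.1WT. At 200 kb they were 6.06 RPM, 6.82 RPM, 5.09 RPM and 4.90 RPM. At 1 Mb the H3.3 medians of 4.17 RPM and 4.56 RPM were still 1.39 and 1.64 times those of all bins, and the H3.1 medians of 4.34 RPM and 4.13 RPM were 1.19 and 1.13 times theirs. The H3.3 medians at 20 to 50 kb were slightly above those in the bins.

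**Figure D4:**
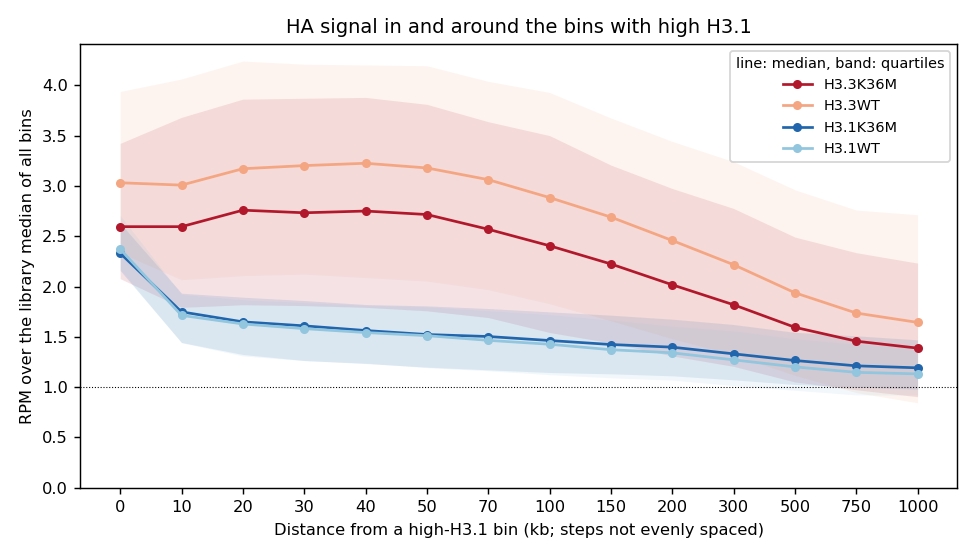
Lines give the median signal, divided by the library median of all bins, in high-H3.1 bins (0 kb) and in bins at 10 kb to 1 Mb from them that were not high in H3.1; bands are quartiles and the distance steps are uneven. The H3.3 lines stay between 2.41 and 3.22 up to 100 kb; the step of the H3.1 lines between 0 and 10 kb is set by the choice of bins.

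The authors' deposited list of H3.1K36M peaks, given as positions with no score, fell almost wholly on these bins. At least 1 base of 64 of the 73 peaks (87.7%) lay in a high-H3.1 bin. The peaks and the bins come in part from the same library, so this overlap is a description. Even so, only 72 of the 2599 bins (2.77%) held such a peak, where 0.0338% of all bins did. The share grew with H3.1, from 0.594% of bins between 7.3 and 8 RPM to 25.7% of the 74 bins between 12 and 15 RPM and 23.7% of the 38 bins between 15 and 20 RPM. It was 0 in the 85 bins with at least 20 RPM in both H3.1 lines, and none of the 40 bins above 50 RPM held an H3.1K36M peak. The bins with the most H3.1 signal and the listed peaks were thus apart. H3.3 was higher in the 72 bins with an H3.1K36M peak, with medians of 10.1 (H3.3K36M) and 9.76 RPM (H3.3WT), than in the 2527 without one, with 7.77 (H3.3K36M) and 8.36 RPM (H3.3WT). An H3.3K36M peak lay in 29.2% of these 72 bins and in 14.1% of the 2527. The 72 also held more H3.1, with medians of 11.4 (H3.1K36M) and 10.99 RPM (H3.1WT), against 8.435 and 8.60 RPM in the 2527. In the 195 bins from 10 to 12 RPM, H3.3 medians were 9.14 (H3.3K36M) and 10.2 RPM (H3.3WT). An H3.3K36M peak lay in 19.5% of those 195. The part of the H3.1 level in these differences was not tested. Of the 72, 11 lay at chr1:33870001-34000000, and neighbouring bins are not independent.

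The longest H3.1K36M peak inside high-H3.1 bins was chr8:87324601-87347800, where bins averaged 13.1 (H3.3K36M), 15.3 (H3.3WT), 14.4 (H3.1K36M) and 12.7 RPM (H3.1WT). At chr15:101786001-101799200 the means were 9.32 RPM, 11.2 RPM, 16.2 RPM and 16.3 RPM in the same order, and at chr10:80900401-80913000 they were 8.97 RPM, 7.72 RPM, 14.8 RPM and 15.1 RPM. H3.1 was the higher variant in both states at the peaks on chromosomes 15 and 10, and none of the 3 overlapped a peak in the H3.3K36M list. Of the 10 longest, 4 lay on chromosome 1, 3 of them inside its 270 kb run. At chr4:62169201-62177800, which did overlap an H3.3K36M peak, H3.3 was the higher variant, with 21.5 (H3.3K36M), 26.95 (H3.3WT), 15.6 (H3.1K36M) and 14.6 RPM (H3.1WT). Of the 9 peaks outside, 2 lay in rows of the table wider than 10 kb. The other 7 lay in bins that missed the threshold in at least 1 H3.1 line, with means of 6.89 to 8.94 RPM in H3.1K36M and 5.26 to 7.36 RPM in H3.1WT. Both sides of the threshold held like bins: chr5:136540001-136550000, just inside, had 9.01 RPM (H3.1K36M) and 7.301 RPM (H3.1WT), and chr19:57380001-57390000, just outside, had 7.278 RPM and 9.28 RPM. In 1240 bins H3.1K36M alone reached 7.3 RPM, and in 1924 bins H3.1WT alone did.

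The H3.3K36M peaks of the authors' deposited list were less common in high-H3.1 bins than in other bins of like H3.3. Such a peak was found in 378 of the 2599 bins (14.5%), where 4.25% of all bins had one. Among H3.3-rich bins, however, the share was 18.95% with high H3.1 (373 of 1968) and 25.8% without it (8371 of 32387). The same order held at like H3.3WT signal, a library in which the listed peaks were not called. With 8 to 10 RPM in H3.3WT, 14.0% of the high-H3.1 bins (76 of 541, exact 95% interval 11.2 to 17.3%) and 19.9% of the other bins (19.2 to 20.6%) held a peak. With 15 to 50 RPM it was 44.4% (37.2 to 51.8%) and 58.7% (55.7 to 61.7%). The intervals were also apart from 6 to 8 RPM and from 10 to 15 RPM and overlapped from 4 to 6 RPM. They treat bins as independent, which neighbouring bins are not. H3.3K36M itself was not lower in these high-H3.1 bins in 4 of the 5 classes: at 15 to 50 RPM its median was 17.7 RPM with high H3.1 and 15.5 RPM without it. From 10 to 15 RPM it was 10.4 RPM with high H3.1 and 10.7 RPM without it.

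**Figure D5:**
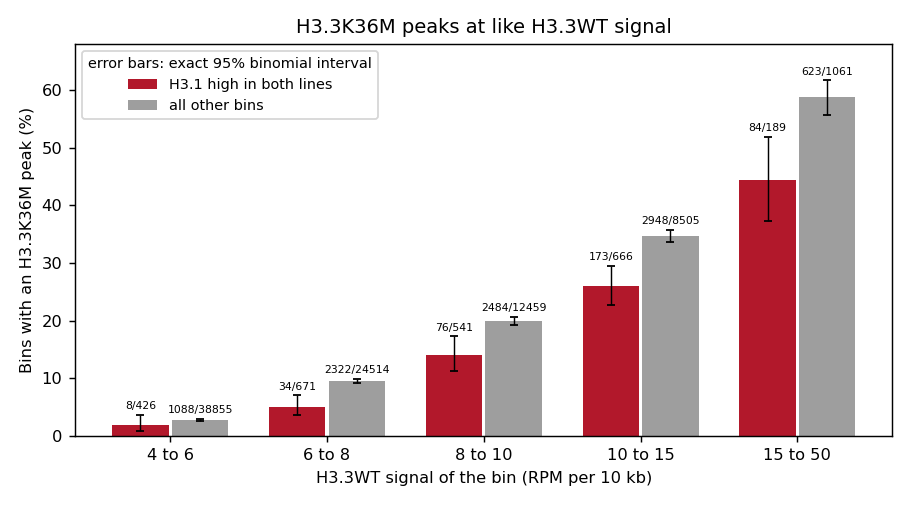
Bars give the percentage of bins that overlap an H3.3K36M peak, for bins with high H3.1 in both lines (red, left) and all other bins (grey, right), in classes of H3.3WT signal; error bars are exact 95% binomial intervals and the counts at the bar tops are bins with a peak over all bins of the class. The red bar is the lower in each of the 5 classes.

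The signals of K36M and WT lines were close in most of the bins. As a log2 ratio, H3.3K36M over H3.3WT had a median of -0.07 in the high-H3.1 bins and 0.10 over all bins, a distance of -0.17, and H3.3K36M was below H3.3WT in 1526 of 2599 (58.7%), against 41.6% of all bins. The median in the high-H3.1 bins was below that of the same chromosome on 16 of 20 chromosomes, with an SD of 0.15 over the chromosome medians. Among H3.3-rich bins alone, the median was -0.07 with high H3.1 and -0.02 without it, a distance of -0.06. Taken within each chromosome, this distance was below 0 on 13 of 20. The SD above is of chromosome levels and does not measure the spread of this distance. Between the H3.1 lines the median log2 ratio was -0.01 in the high-H3.1 bins, a value that the choice of bins high in both lines holds near 0.

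H3.3K36M over H3.3WT was also compared by H3.1 level. In the 2402 bins with less than 12 RPM in the lower H3.1 line, H3.3K36M over H3.3WT had a median log2 value of -0.08, and 38.9% were higher in H3.3K36M. In the 197 bins with at least 12 RPM it was 0.18, and 139 (70.6%) were higher, against 58.4% of all bins. Of the 197, 62.9% were above the median of all bins. They formed 68 clusters, of which 42 (61.8%) were higher in H3.3K36M, near the share of all bins, and 38 lay above the median of all bins. The 10 clusters of 5 bins or more held 112 of the 197 bins, and in the other 85 bins the median was 0.06. This limit was chosen after the values were seen. With the threshold for the bins themselves raised to 11 RPM, the median over the 264 bins left was 0.16.

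Several of the large clusters were higher in H3.3K36M while H3.1 was about equal or slightly higher. At chr1:85070001-85330000, 10 bins averaged 16.6 (H3.3K36M), 10.2 (H3.3WT), 26.8 (H3.1K36M) and 24.0 RPM (H3.1WT), so H3.3K36M was 1.64-fold higher (1.58 to 1.70). At chr1:87390001-87530000, 6 bins averaged 18.2 RPM, 11.1 RPM, 30.7 RPM and 26.9 RPM in the same order, a 1.65-fold difference (1.57 to 1.72). The clusters chr4:144990001-145190000, chr16:3110001-3360000 and chr5:14900001-15210000 were 1.40-fold, 1.46-fold and 1.26-fold higher in H3.3K36M. Of these 5 clusters, 4 had less H3.3 than H3.1 in both states, and the cluster on chromosome 16 had H3.3 over H3.1 at 1.42 in the K36M lines and 1.00 in the WT lines. At chr1:33870001-34000000, a cluster of 12 bins with 7 that overlapped H3.3K36M peaks, H3.3K36M was the lower, at 14.0 RPM, and H3.3WT was at 15.6 RPM. H3.3K36M over H3.3WT was 0.890 (0.871 to 0.910) at chrX:166400001-166510000, where H3.1K36M over H3.1WT was 1.34. The H3.3 ratio was 0.982 at chr11:3000001-3100000. The remaining clusters of 5 bins or more, chr8:19700001-20040000 and chr1:90110001-90210000, were 1.16-fold and 1.07-fold higher in H3.3K36M.

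Differences of at least 2-fold in H3.3 were rare in the bins. H3.3K36M was at least 2-fold higher in 14 of 2599 bins (0.539%), against 2.94% of all bins, and at least 2-fold lower in 5 (0.192%), against 1.81% of all bins. A narrow spread of this ratio was not particular to high H3.1. Its SD over bins was 0.29 in H3.3-rich bins with high H3.1, 0.30 in those without it and 0.49 over all bins. In H3.1 the rule itself, which asks for a high level in both lines, leaves little room for such a difference: none of the bins had one, and 0.0122% of all bins were higher and 0.064% lower in H3.1K36M, so nothing is read from this. With the columns scaled by their median ratio over all bins, 9 bins were higher and 12 lower. The higher bins came mostly in groups. At chr3:92060001-92080000 the signal was 33.1 (H3.3K36M), 11.8 (H3.3WT), 14.7 (H3.1K36M) and 10.6 RPM (H3.1WT), so that H3.3K36M was 2.81-fold higher (2.62 to 3.02) and H3.1K36M 1.39-fold higher (1.26 to 1.52). The nearby run chr3:92030001-92050000 was 2.54-fold higher in H3.3K36M (2.37 to 2.72). At chr13:22990001-23040000, 5 bins averaged 8.22 (H3.3K36M), 3.40 (H3.3WT), 9.34 (H3.1K36M) and 9.52 RPM (H3.1WT). Only H3.3 differed between the states there, 2.42-fold (2.22 to 2.63), and H3.1K36M over H3.1WT was 0.981 (0.919 to 1.05). Single bins at chr14:82090001-82100000 and chr5:146320001-146330000 were 2.17-fold (1.85 to 2.56) and 2.05-fold (1.72 to 2.46) higher in H3.3K36M.

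The lower bins lay in 2 places, and H3.1 was lower there too. On chromosome 10, 4 bins between chr10:83300001 and chr10:83600000 were at least 2-fold lower in H3.3K36M. At chr10:83300001-83310000 the signal was 9.04 (H3.3K36M), 23.2 (H3.3WT), 7.47 (H3.1K36M) and 11.1 RPM (H3.1WT), so H3.3K36M was 2.57-fold lower. At chr10:83410001-83420000 it was 4.38 RPM, 10.6 RPM, 7.83 RPM and 12.9 RPM in the same order. The 2 bins at chr10:83580001-83600000 averaged 4.90 RPM, 10.5 RPM, 7.88 RPM and 11.6 RPM. Both K36M libraries were thus below their WT libraries in these bins, and 3 of the 5 runs with the lowest ratio of H3.1K36M over H3.1WT lay in this stretch or just before it. The lowest, chr10:83550001-83560000, had 7.33 RPM (H3.1K36M) and 13.4 RPM (H3.1WT), a ratio of 0.545 (0.470 to 0.631), with 5.34 RPM (H3.3K36M) and 10.5 RPM (H3.3WT). The other runs with a low H3.1 ratio were chr17:80240001-80260000 at 0.670 (0.604 to 0.743) and chr19:34340001-34350000 at 0.669 (0.574 to 0.779), where H3.3K36M over H3.3WT was 0.754 (0.692 to 0.822) and 0.941 (0.823 to 1.08). The remaining lower bin, chr11:12270001-12280000, held 4.53 (H3.3K36M), 10.4 (H3.3WT), 7.66 (H3.1K36M) and 10.3 RPM (H3.1WT).

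At the other end of the H3.1 ratio, the run at chr3:92060001-92080000 and 3 single bins followed the chromosome 13 bin above. At chr8:75840001-75850000 both variants were higher with K36M, with 24.5 (H3.3K36M), 18.0 (H3.3WT), 16.3 (H3.1K36M) and 11.8 RPM (H3.1WT). The bins chr11:116520001-116530000 and chr11:117080001-117090000 were 1.38-fold (1.18 to 1.61) and 1.37-fold (1.17 to 1.61) higher in H3.1K36M. In H3.3 they had ratios of 0.966 (0.843 to 1.11) and 1.17 (1.02 to 1.33). The reads that picked out these regions by their ratio also gave the values printed, and the intervals do not allow for that choice.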

How the data were processed

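Per the submitters' processing notes, Bowtie 1.0.0 was used and the build is mm9; the steps of peak calling, bin counting and duplicate handling were not given in the sources used here. For the 4 HA libraries the authors deposited RPM per bin, and for the K36M lines also the positions of peaks. All RPM values were whole multiples of 1 step within 0.01 read, so reads were recovered from them; with 1 library per line no count test was possible. Groups follow the genotype field, since an H3.1 name opens the titles of the H3.3 HA samples; the protocol text names a Cbx2 antibody where the descriptions name HA. Wider rows (4029) and other sequences (2304 rows) were left out. Ratios are log2(RPM + 0.1), which understates changes of low bins; folds of regions are RPM ratios with exact Clopper-Pearson 95% intervals. These intervals take each read as an independent molecule, which reads lacking molecular identifiers are not. The bins, classes, alternatives and the rule for named regions (highest bins, longest runs, 5 highest and lowest runs by H3.3 level and by each K36M over WT ratio, longest H3.1K36M peaks, bins at the threshold) were chosen with earlier results of these data known; clusters of at least 12 RPM and the single bin poor in H3.3 were picked with their values in view. Ratios and intervals were tested on simulated data. Coordinates are 1-based. The gene and sequence tables at hand describe another build, so no gene or sequence was placed on the bins. The software was matplotlib 3.10.9, scipy 1.17.1, pandas 2.3.3 and numpy 2.4.6 under Python 3.11.15.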

Additional observations from a re-analysis of the deposited data

Results flagged for a closer look

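Rows wider than 10 kb were used in no comparison. Per 10 kb of their width, 19 of the 4029 reached 7.3 RPM in both H3.1 lines, with 7.35 to 10.9 RPM in H3.1K36M and 7.33 to 11.9 RPM in H3.1WT. Median H3.3 in them was 7.67 RPM (H3.3K36M) and 8.72 RPM (H3.3WT).

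At 6 of the named runs the ratio of K36M over WT had opposite directions in H3.3 and H3.1, with intervals that both leave out 1. The difference between the variants was not tested, and each value rests on 1 library per line. The ratio was 0.931 in H3.3 and 1.10 in H3.1 at chr2:98500001-98510000. It was 0.906 and 1.14 at chr9:3000001-3040000 and 0.902 and 1.19 at chr9:35110001-35120000, in H3.3 and in H3.1. At chr13:77570001-77580000 it was 0.839 in H3.3 and 1.45 in H3.1. The order was the opposite at chr14:82090001-82100000, with 2.17 in H3.3 and 0.807 in H3.1, and at chrX:139910001-139920000, with 1.04 in H3.3 and 0.809 in H3.1. Directions here are relative to equal RPM. The median H3.3K36M over H3.3WT of all bins was 1.07, above the 1.04 of the chromosome X bin. Relative to all bins, H3.3 and H3.1 were thus both lower with K36M in that bin.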

How the results depend on the processing

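Of 38 alternatives over 9 results, 26 moved the value by less than its counting interval, 1.5 times (counts) or the SD over chromosomes (log2 ratio), 11 by more, and 1 turned the direction. Raising the H3.1 threshold to 11 RPM gave 264 bins in 142 runs. H3.3-rich bins were then 95.8%, H3.3-poor bins 0%, bins with an H3.3K36M peak 10.2%, and 39.7% of H3.1K36M peaks lay in the bins. The log2 ratio of the H3.3 lines (K36M over WT) turned to a median of 0.16, with 1.14% of bins 2-fold higher and 0% lower in H3.3K36M. With 3 times the library median as limit, 32.9% were H3.3-rich. The longer peaks alone gave 11.8% of bins with an H3.3K36M peak. Scaling by the median of bin ratios shifted this ratio by -0.11 over all bins. It gave -0.19 in the high-H3.1 bins, against -0.01 over all bins, and 0.462% of bins 2-fold lower in H3.3K36M. Added after seeing the data were the ratio relative to each chromosome (-0.13), H3.3-rich bins alone (-0.07), the H3.3-rich share without chromosome 11 (74.1%) and the H3.1K36M peaks without the chromosome 1 group (85.5%). No paired analysis was possible because each line has 1 HA library, and for the same reason no replicate could be left out.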
